A study of Mesocricetus auratus with 10 samples.

Results

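Apolipoproteins are the protein parts of lipoproteins, the particles that carry cholesterol and triglyceride through blood. The set described here holds the array's probes named for any of 10 apolipoprotein genes, APOA1, APOA2, APOA4, APOA5, APOB, APOC1, APOC2, APOC3, APOE and APOH. By this rule 41 of 116452 non-control probes were taken, on 43 of 165353 spots. They covered 7 of the 10 genes, with 19 probes for APOB, 9 for APOA5, 6 for APOE, 4 for APOH and 1 each for APOA2, APOA4 and APOC1. APOC2 and APOC3 were not analysed here. APOA1 appeared only under a longer descriptive name, on 3 probes outside the rule, whose values are given separately.

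Livers came from golden hamsters (Mesocricetus auratus), all male, per the labels. The 10 animals on the high fat diet (HFD) gave 1 RNA sample each, and 10 animals on the standard diet (STD) gave a single pooled RNA. Every HFD sample was hybridised against that pool on 2 arrays with the dyes Cy5 and Cy3 exchanged, 20 arrays in all, and the 2 ratios of an animal were averaged. The labels give no age, diet composition or feeding time for any of the animals. Because the STD animals were pooled, the spread given is that between HFD animals, and tests against the pool leave out the spread between STD animals. Values are log2 ratios, HFD over STD pool, as mean ± SD with n = 10 animals, and adjusted p is from limma against 0, two-sided.

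The liver makes most of the apolipoproteins in plasma. APOB is the scaffold of very low density lipoprotein and stays with the particle until it is cleared, while the smaller apolipoproteins move between particles, activate or restrain lipases and act as ligands of receptors. RefSeq's gene table for the assembly BCM_Maur_2.0 was used for names and neighbours only. In it Apoa1 (gene 101841336), Apoc3 (101831297), Apoa4 (101831562) and Apoa5 (101841608) stood in a row. Apoe (101839625), Apoc1 (101825021), Apoc4 (121132722) and Apoc2 (101839353) formed a second row. Apoa2 (101840339), Apob (101840391) and Apoh (101836971) stood apart from both.

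Probes are 60 bases long, and several of them carry results below. For APOE, the first 3 probes belong to the assembled transcript hamV2-76370 and the last to hamV2-32180. Capitals mark a run of 47 bases in CUST_47412 whose reverse complement lies in CUST_51752, so that these 2 probes read opposite strands of the same stretch.
CUST_47411: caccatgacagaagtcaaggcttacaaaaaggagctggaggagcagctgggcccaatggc
CUST_47412: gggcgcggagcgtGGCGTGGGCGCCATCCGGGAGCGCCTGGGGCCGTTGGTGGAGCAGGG
CUST_47413: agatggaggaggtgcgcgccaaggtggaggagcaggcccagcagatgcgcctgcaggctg
CUST_51752: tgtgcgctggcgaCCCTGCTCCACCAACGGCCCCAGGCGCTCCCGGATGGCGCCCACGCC

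APOA5 likewise had probes on 2 assembled transcripts, hamV2-128870 and hamV2-39201. Capitals mark 53 bases of CUST_55323, on the first, whose reverse complement lies in CUST_76128, on the second. No other probe of the array shared a run of 30 or more bases with any of the 41 on either strand.
CUST_55323: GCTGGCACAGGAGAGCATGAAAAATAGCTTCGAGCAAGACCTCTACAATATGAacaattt
CUST_76128: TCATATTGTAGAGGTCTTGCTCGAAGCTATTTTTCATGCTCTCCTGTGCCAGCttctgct

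The only probes of APOA2 and APOC1 are shown because each of these genes rests on 1 sequence, and the APOB probes with the highest and the lowest mean ratio because they bound the spread within that gene.
APOA2 CUST_15990: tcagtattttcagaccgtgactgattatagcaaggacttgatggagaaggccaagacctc
APOC1 CUST_19755: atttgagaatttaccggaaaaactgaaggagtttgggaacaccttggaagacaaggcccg
APOB CUST_100953: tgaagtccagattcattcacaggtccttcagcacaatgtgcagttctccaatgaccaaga
APOB CUST_100954: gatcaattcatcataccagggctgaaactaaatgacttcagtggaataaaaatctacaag

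All 41 probes exceeded background clearly in both RNAs on all 20 arrays, by the scanner software's own flag, and none was saturated, so that each ratio was measured on both sides. Over the arrays, 77.5% to 97.8% of all probes did so in HFD RNA and 77% to 96.9% in the pool. The hepatocyte genes ALB and TTR were detected on every array in both RNAs, as the liver label requires. The members were among the brightest probes, from the 80.9th percentile of mean brightness (CUST_76122 of APOA5) to the 99.2nd (CUST_47413 of APOE). How precise the values are rests on the 10 HFD animals and the spread between them. The dye-swapped arrays of an animal were averaged before the test, so arrays were not counted as replicates. The spread between STD animals is left out, because these were pooled. Among the 20 arrays, 6 formed a group of their own, namely those on which animals 5 to 10 carried Cy3. Over the 104182 probes tested, ratios of these 6 correlated with each other at 0.83 to 0.91, and the highest correlation of any other pair of arrays was 0.76. Without them APOA2, APOA4, APOE, APOA5 and APOH kept their calls and APOB lost its call, as given with the dye orientations.

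The question of the comparison was how the liver's apolipoprotein transcripts differed between animals on the high fat diet and the standard diet pool. Taking the brightest probe of each gene, APOA4, APOE, APOA2 and APOB were higher in HFD livers, APOA5 and APOH were lower, and APOC1 did not pass the test. Thus 4 of the 7 genes were called higher and 2 lower at an adjusted p under 0.05. The APOB call rested on arrays with HFD in Cy3, at 0.49, as arrays with HFD in Cy5 gave 0.05 and did not pass. Over all 13881 genes tested, 60.1% were called, 31.3% higher and 28.8% lower, with a median log2 ratio of 0.01. Calls were thus common across the whole array.

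**Figure D1:**
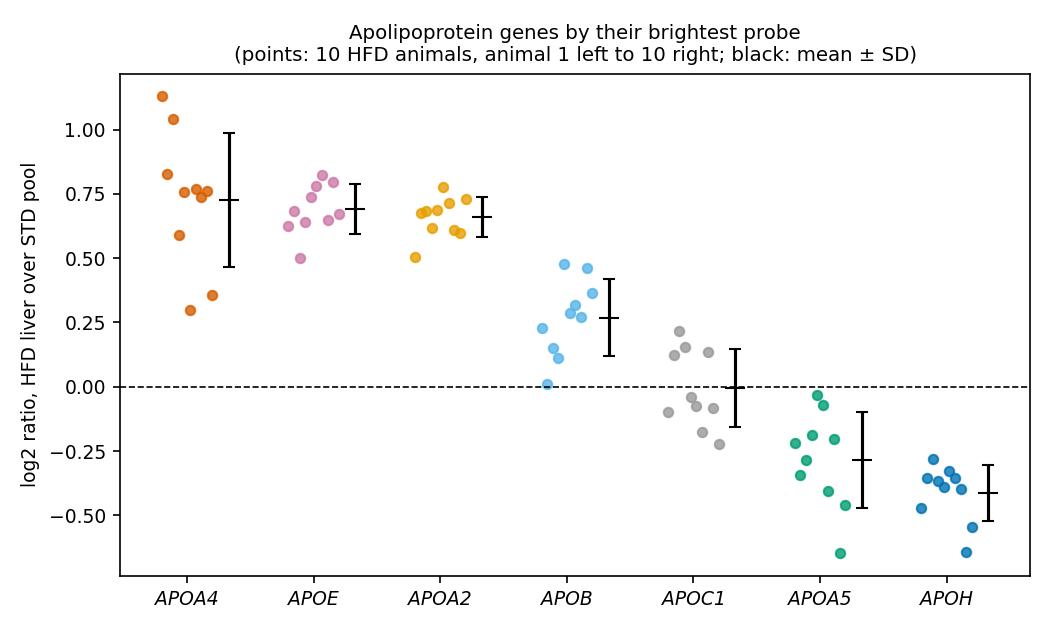
Log2 ratio, HFD over STD pool (vertical axis) for the brightest probe of 7 apolipoprotein genes, with 1 point per HFD animal, mean of its 2 dye-swapped arrays, and the mean ± SD in black. All 10 animals lie above 0 for APOA4, APOE, APOA2 and APOB and below 0 for APOA5 and APOH, while APOC1 lies on both sides.

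APOA2, the second protein of high density lipoprotein by abundance, ranged over the 10 HFD animals from 0.51 through a median of 0.68 to 0.78. Every animal was above the pool, and the spread was narrow. The mean was 0.66 ± 0.08, 1.58-fold, with an adjusted p of 1.33e-09, and the gene ranked 170 of 13881 by mean ratio. APOA1, the main protein of high density lipoprotein, was read by the 3 probes outside the rule at 0.24 ± 0.19, 0.22 ± 0.13 and 0.20 ± 0.13. All 3 passed the test over the 104182 probes tested, with adjusted p between 3.99e-04 and 0.0021, but the calls came from 1 dye orientation. With HFD in Cy5 they gave 0.47, 0.61 and 0.45, and with HFD in Cy3 they gave 0.0032, -0.17 and -0.042, of which the second was called lower (adjusted p 0.00298). No direction is therefore given for APOA1. In the mean of both orientations the highest animal on these probes reached 0.43, below the lowest animal of APOA2.

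APOA4, an apolipoprotein of triglyceride-rich particles that is made mainly by the intestine and, in rodents, also by the liver, had the highest mean ratio of the 7 genes. Its 10 animals ran from 0.30 through a median of 0.76 to 1.13. All were above the pool, with animals 1 and 3 highest (1.13 and 1.04) and animals 6 and 10 lowest (0.30 and 0.36). The mean was 0.73 ± 0.26, 1.65-fold, with an adjusted p of 2.21e-06. Of 8 markers of intestine and pancreas looked for, 2 were measured, VIL1 at -0.25 ± 0.07 and MTTP at -0.40 ± 0.18, both lower in HFD livers. MTTP is also among the genes of lipoprotein assembly described below, so it does not set other tissue apart from liver. The other 6 were not measured, so the part of other tissue in the APOA4 value was not tested.

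APOE, the ligand through which remnant particles are taken up by receptors of the LDL receptor family, was higher on all 6 of its probes. On CUST_47413, its brightest probe, the 10 animals ran from 0.50 through a median of 0.68 to 0.82. None was at or below the pool. The mean was 0.69 ± 0.10, 1.61-fold, with an adjusted p of 2.59e-09. CUST_47412 and CUST_47411, on the same transcript, gave 0.64 ± 0.08 and 0.59 ± 0.06. The 3 probes of hamV2-32180 gave less, at 0.40 ± 0.12, 0.36 ± 0.14 and 0.28 ± 0.17. Which of the 2 assembled transcripts follows the coding strand was not tested, so the 6 probes may not all read the APOE message.

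The 2 APOE probes that read opposite strands of 1 stretch, printed above with their shared run in capitals, differed in every animal. CUST_47412 exceeded CUST_51752 by 0.24 ± 0.12, and the difference was above 0 in 10 of 10 animals. Both were higher in HFD livers than in the pool in each animal. Whether the signal of the second probe comes from RNA of the opposite strand or from labelled copies of the first strand was not tested. APOE is made by macrophages as well as hepatocytes. Of 14 macrophage markers measured out of 19, 8 were higher and 3 lower, with a median of 0.18 and animal means between -0.05 and 0.41, while 1 of 18 hepatocyte markers was higher and 13 lower, with a median of -0.36 and animal means between -0.58 and -0.23. Over all genes 31.3% were higher and 28.8% lower. The part of these shifts in the apolipoprotein ratios was not tested, and in whole liver RNA fewer cells of a type cannot be told apart from less RNA per cell.

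**Figure D2:**
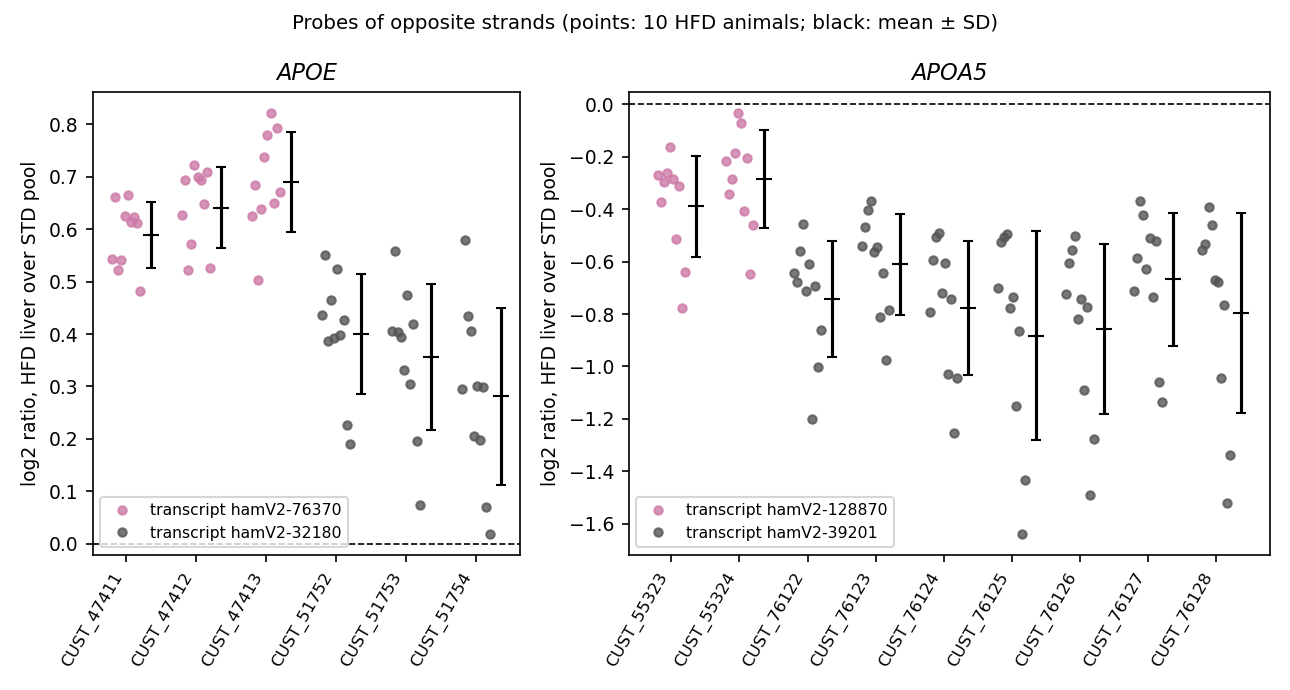
Log2 ratio, HFD over STD pool (vertical axes) on each probe of APOE (left) and APOA5 (right), with 1 point per HFD animal and the mean ± SD in black, coloured by assembled transcript. APOE probes of hamV2-76370 average 0.59 to 0.69 against 0.28 to 0.40 on hamV2-32180, and APOA5 probes of hamV2-128870 average -0.39 and -0.28 against -0.88 to -0.61 on hamV2-39201.

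APOC1, which restrains lipoprotein lipase and the uptake of remnants and lies beside APOE in the genome, did not pass the test. Its animals ran from -0.22 through a median of -0.06 to 0.22, with 4 of 10 above the pool. The mean was -0.01 ± 0.15, with an adjusted p of 0.913. APOE exceeded APOC1 by 0.70 ± 0.23 in the same livers, above 0 in 10 of 10 animals. APOC4, the next gene of the row, was lower in HFD livers, at -0.24 ± 0.14 on its brighter probe and -0.41 ± 0.16 on the other. With HFD in Cy5 and in Cy3 the brighter probe gave -0.40 and -0.09, and the other -0.34 and -0.48. The row thus held a gene called higher, a gene not called and a gene called lower.

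APOB was higher on 17 of its 19 probes and lower on none. On CUST_100945, its brightest probe, the animals ran from 0.01 through a median of 0.28 to 0.48. All 10 were above the pool, animal 2 by the least (0.01). The mean was 0.27 ± 0.15, 1.20-fold, with an adjusted p of 1.47e-04. The 19 probes averaged 0.29, and their means ran from 0.07 on CUST_100954 to 0.56 on CUST_100953, the 2 probes printed above. CUST_100954 (adjusted p 0.075) and CUST_100947 (0.09 ± 0.18, adjusted p 0.128) did not pass. Of the 19 probes, 18 belong to 1 assembled transcript, hamV2-28863, so they are not independent measurements. On arrays with HFD RNA in Cy5 alone the APOB mean was 0.05 and did not pass, as described with the dye orientations.

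APOA5, which raises the activity of lipoprotein lipase and is known for lowering plasma triglyceride, was lower on all 9 of its probes. They lie on 2 assembled transcripts that read opposite strands in 1 stretch, and which strand is the coding one was not tested. On its brightest probe, CUST_55324, the animals ran from -0.65 through a median of -0.25 to -0.03. All 10 were below the pool, animals 9 and 10 furthest (-0.65 and -0.46). The mean was -0.28 ± 0.19, with an adjusted p of 3.92e-04. The 7 probes of hamV2-39201 gave lower ratios, from -0.88 ± 0.40 on CUST_76125 to -0.61 ± 0.19 on CUST_76123. On CUST_76125 the animals ran from -1.64 to -0.50, the widest range of any of the 41 probes. The 2 probes that read opposite strands of 1 stretch, CUST_55323 and CUST_76128, gave -0.39 ± 0.19 and -0.80 ± 0.38. Their difference was 0.41 ± 0.22, and it was above 0 in 10 of 10 animals. Whether the signal of CUST_76128 comes from RNA of the opposite strand or from labelled copies of the first strand was not tested. In the same livers APOA4, the neighbour of APOA5, exceeded it by 1.01 ± 0.33, also in 10 of 10.

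APOH, also called beta-2-glycoprotein I, a plasma protein that binds anionic phospholipid and is only partly carried on lipoproteins, was lower on all 4 of its probes. On CUST_63454 the animals ran from -0.64 through a median of -0.38 to -0.28. All were below the pool, animals 9 and 10 furthest (-0.64 and -0.55), as for APOA5. The mean was -0.41 ± 0.11, with an adjusted p of 5.22e-07. The other 3 probes gave -0.40 ± 0.10 (CUST_63455), -0.37 ± 0.15 (CUST_63452) and -0.35 ± 0.12 (CUST_63453), with no animal above the pool on any of them.

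By mean ratio the 7 genes stood in the order APOA4, APOE, APOA2, APOB, APOC1, APOA5 and APOH. The first 3 did not separate. APOA4 exceeded APOE by 0.04 ± 0.31 in 5 of 10 animals, and APOE exceeded APOA2 by 0.03 ± 0.10 in 8 of 10. APOA2 exceeded APOB by 0.39 ± 0.16 in 10 of 10 animals, but by 1.12 with HFD in Cy5 and by -0.34 with HFD in Cy3. The steps from APOB to APOC1 (0.27 ± 0.27 in 7 of 10), from APOC1 to APOA5 (0.28 ± 0.20 in 8 of 10) and from APOA5 to APOH (0.13 ± 0.14 in 7 of 10) were not present in every animal, and each of these 3 steps also changed sign between the dye orientations. With HFD in Cy3 APOB stood highest, at 0.49, and APOC1, at -0.34, stood below APOA5, at -0.06. The order is thus one of the averages of both orientations. With all probes of a gene averaged, over both assembled transcripts for APOA5 and APOE, APOA5 stood below APOH, at -0.67 against -0.38. APOE then stood at 0.49.

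At the level of probes, 25 of the 41 were higher, 13 lower and 3 not called. Over all 104182 probes tested, 55% were called, 26.7% higher and 28.3% lower. The 25 that rose were the 17 APOB probes, the 6 of APOE and those of APOA2 and APOA4, and the 13 that fell were the 9 of APOA5 and the 4 of APOH. Within a gene, no probe was called against the others in the mean of both orientations. With HFD in Cy5 alone, 1 APOB probe was called higher and 2 lower. The arrays were scanned in 3 sessions, and each animal had 1 array in the first. On the arrays of the first session alone 25 probes were higher and 13 lower, and on those of the later sessions 24 and 13. Over all 13881 genes tested, 3922 were higher and 3390 lower in the first session, and 3188 and 2883 in the later ones. Both sets held some of the 6 Cy3 arrays that formed a group of their own, so the 2 sets do not separate that group.

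The averages above join 2 dye orientations, and on many probes these differed. The orientation difference passed the test for 7 of the 41 probes with Cy5 higher and for 22 with Cy3 higher, beside 43.4% of all probes tested, 21.2% with Cy5 higher and 22.1% with Cy3 higher. Among the 2521 tested probes at or above the 97th percentile of brightness, 1604 (63.6%) passed. With HFD in Cy5 alone 10 members were called higher and 14 lower, where 42.8% of all probes were called, 21.2% higher and 21.6% lower. With HFD in Cy3 alone the counts were 27 and 13, where 58.9% of all probes were called, 28.4% higher and 30.5% lower.

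On their brightest probes APOE, APOA2 and APOA4, the genes with the highest averages, gave larger ratios with HFD in Cy5. On arrays with HFD RNA in Cy5 the APOE probe CUST_47413 ran from 1.07 through 1.22 to 1.45, and on arrays with HFD RNA in Cy3 from -0.06 through 0.13 to 0.37. The 2 sets of arrays did not overlap, and 8 of 10 arrays with HFD in Cy3 were still above 0. The means were 1.23 and 0.15, and the difference of 1.09 had an adjusted p of 7.50e-08 over all probes. In size it stood at the 99.9th percentile of all probes. The neighbouring probes on the same transcript showed no such gap, with 0.64 and 0.65 on CUST_47412 and 0.57 and 0.61 on CUST_47411. By base composition, CUST_47413 holds 68.3% G and C, CUST_47412 80%, CUST_47411 55% and the APOA2 probe 45%.

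APOA2 behaved like the APOE probe CUST_47413. It ran from 1.01 through 1.18 to 1.28 with HFD in Cy5 and from -0.05 through 0.16 to 0.28 with HFD in Cy3. These ranges were also apart, with 9 of 10 Cy3 arrays above 0. The difference was 1.02 (adjusted p 2.88e-08). For APOA4 the means were 1.05 and 0.40, a difference of 0.65 (adjusted p 4.83e-06). With loess these 3 probes each passed the test as higher in either orientation alone, which was not so with median centring, as given with the normalisations.

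The scanner brightness of these probes, background-subtracted and not scaled between arrays, was read within each dye as well. In Cy5, CUST_47413 of APOE had 381209 to 489402 units in HFD RNA (median 406001) and 300424 to 373196 in the pool (median 327075). In Cy3 it had 156570 to 226241 units in HFD RNA (median 185924) and 72032 to 104892 in the pool (median 83448). HFD and pool arrays did not overlap in either dye. For APOA2 they did not overlap in Cy3, with medians of 130743 units in HFD RNA and 58120 in the pool. In Cy5 they overlapped, with medians of 282893 and 212672. The APOB probe CUST_100945 did not overlap in Cy3 either, with medians of 28072 units in HFD RNA and 14890 in the pool. In Cy5 its medians were 29521 and 32766. Arrays differed in brightness as a whole, and the share of all probes with such gaps was not counted. Non-overlap is therefore not read as particular to these probes.

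**Figure D3:**
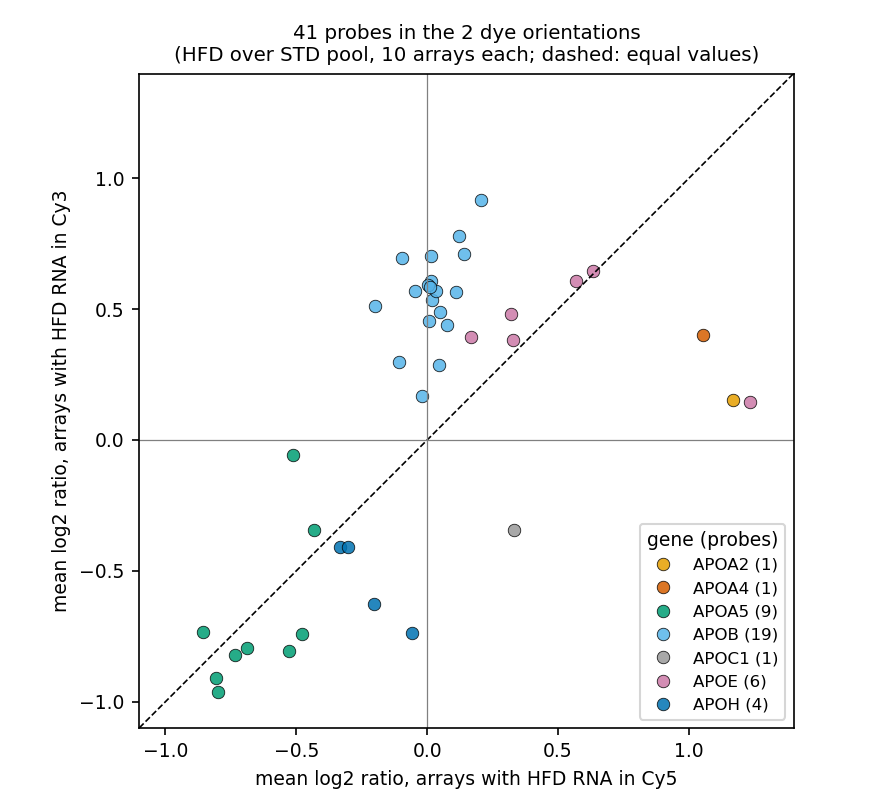
Mean log2 ratio, HFD over STD pool, of each of the 41 probes on the 10 arrays with HFD RNA in Cy5 (horizontal axis) and on the 10 with HFD RNA in Cy3 (vertical axis), coloured by gene, with equal values on the dashed line. APOA2, APOA4, APOC1, 1 of 6 APOE probes and, by 0.68, the APOH probe CUST_63455 lie far to the right of the line, all 19 APOB probes lie above it, and APOC1 lies on opposite sides of 0.

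APOC1 was called in opposite directions by the 2 orientations. With HFD in Cy5 its arrays ran from -0.06 through 0.33 to 0.55, and with HFD in Cy3 from -0.69 through -0.32 to -0.02. No Cy3 array was above 0 and 9 of 10 Cy5 arrays were. The means of 0.33 and -0.34 each passed the test, and their difference was 0.67 (adjusted p 7.00e-05). The mean near 0 is therefore the middle of 2 unlike values, and no direction is given for APOC1.

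For APOB all 19 probes were higher with HFD in Cy3, and all 19 differences passed the test. CUST_100945 ran from -0.11 through 0.04 to 0.33 with HFD in Cy5 and from -0.04 through 0.55 to 0.85 with HFD in Cy3. Over the 19 probes the mean was 0.02 with HFD in Cy5 and 0.55 with HFD in Cy3. In Cy5 alone 1 APOB probe was called higher and 2 lower, against 19 higher in Cy3 alone. The 6 Cy3 arrays of animals 5 to 10, already described as a group of their own over all probes, gave 0.53 to 0.85 on CUST_100945, and the Cy3 arrays of animals 1 to 4 gave -0.04 to 0.34. Without those 6 arrays, the APOB value was 0.12 with an adjusted p of 0.0576 and no longer passed.

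**Figure D4:**
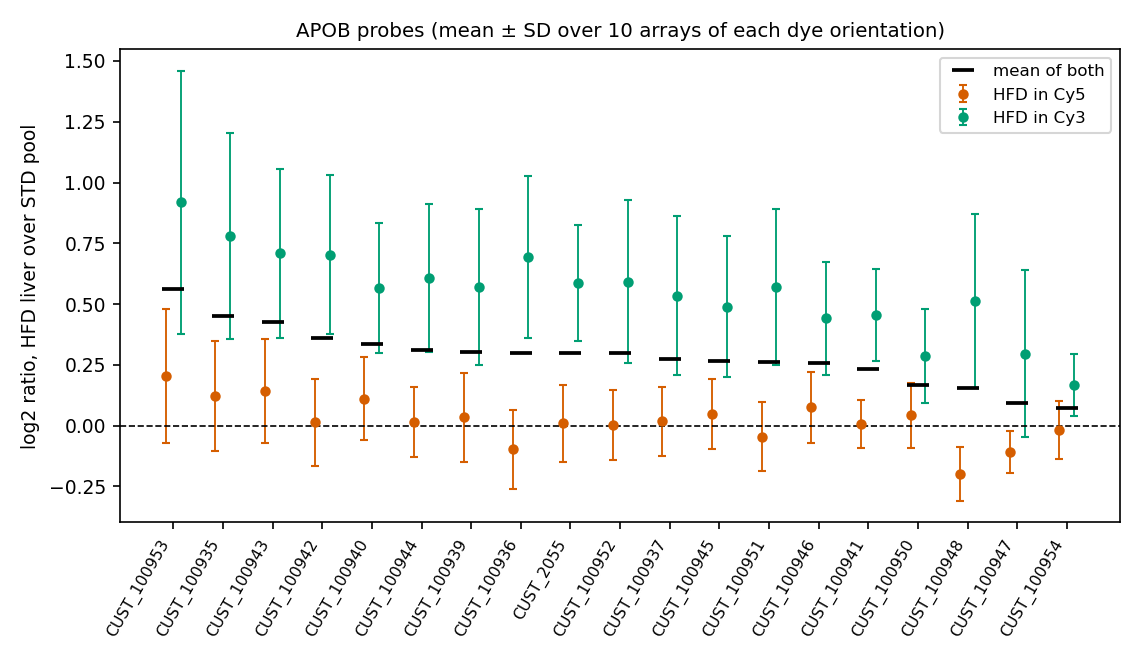
Mean ± SD of the log2 ratio, HFD over STD pool (vertical axis) on each of the 19 APOB probes, over the 10 arrays with HFD RNA in Cy5 and over the 10 with HFD RNA in Cy3, with the mean of both as a black bar. The Cy5 means lie between -0.20 and 0.20 and the Cy3 means between 0.17 and 0.92.

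For the genes that were lower, each orientation kept the direction of the mean after loess. APOA5 on CUST_55324 gave -0.51 with HFD in Cy5 and -0.06 with HFD in Cy3, the second not passing the test. Its other 8 probes, 7 of them on hamV2-39201, were called lower in both orientations. APOH on CUST_63454 gave -0.20 and -0.63, and 3 of its 4 probes were called lower in Cy5 alone and 4 in Cy3 alone.

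These orientation differences depended on the normalisation, while the averages of both orientations did so less. With each array centred on its median in place of loess, 23 probes had Cy5 higher and 1 had Cy3 higher. The APOB probes then averaged 0.27 with HFD in Cy5 and 0.26 with HFD in Cy3, and CUST_47412 of APOE showed a difference of 0.80. With HFD in Cy3 the means of APOA2, the APOE probe CUST_47413 and APOA4 then lay below 0, at -0.35, -0.40 and -0.099. With HFD in Cy5 3 of the 4 APOH probes lay above 0, at 0.13 on CUST_63454, 0.27 on CUST_63455 and 0.01 on CUST_63453. The gap of CUST_47413 was 1.99 under median centring and 0.51 with the software's processed signals, against 1.09 with loess. The averages of both orientations under median centring were 0.58 for APOA2, 0.65 for APOA4, 0.60 for APOE, 0.23 for APOB, -0.07 for APOC1, -0.31 for APOA5 and -0.48 for APOH. All but APOC1 passed.

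**Figure D5:**
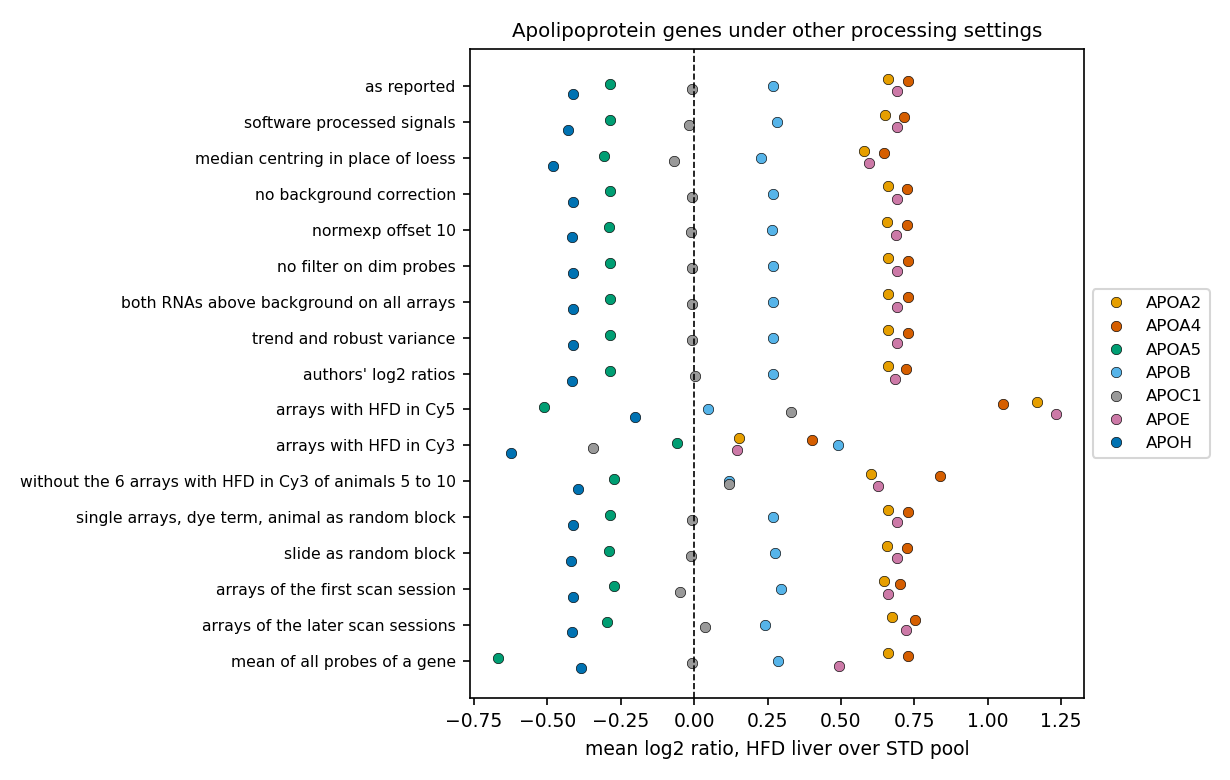
Mean log2 ratio, HFD over STD pool, (horizontal axis) of the 7 genes under each processing setting (vertical axis), each gene by its brightest probe except in the last row, where all probes of a gene were averaged. The order changes on arrays of 1 dye orientation. With HFD in Cy5 the genes run from -0.51 to 1.23, and with HFD in Cy3 from -0.63 to 0.49, with APOB highest and APOC1 below APOA5.

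Across the 10 animals the genes did not move as a set. Between the 7 genes, Pearson correlations of the per-animal ratio ran from -0.67 (APOA2 with APOA4) to 0.67 (APOA5 with APOH), with APOB and APOE at 0.55 and APOB and APOC1 at -0.65. Probes of 1 gene were closer, with median correlations of 0.92 over the 171 pairs of APOB probes, 0.90 for APOH, 0.88 for APOA5 and 0.55 for APOE. These values describe 10 animals that share 1 pool and the same arrays, and are given without a test. With HFD in Cy3 the mean of the APOB probes was 0.05 to 0.40 in animals 1 to 4. It was 0.66 to 0.90 in animals 5 to 10, whose Cy3 arrays formed a group of their own. The part of this array group in these correlations and those below was not tested.

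By the same measure, the 2 genes whose per-animal ratios were most like each member were SMAD4 (0.97) and POLDIP3 (0.97) for APOB, SESN3 (0.97) and TFPT (0.96) for APOC1, and CYP2F4 (0.97) and UROC1 (0.95) for APOH. For APOA5 they were UGT1A2 (0.94) and CHST13 (0.93), and for APOA2 HYLS1 (0.94) and HSD11B1 (0.91). For APOE they were NAIP2 (0.93) and NPAT (0.92), and for APOA4 WDSUB1 (0.92) and OTUD1 (0.92). They are the highest of the correlations with all 13881 genes on 10 points.

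Other apolipoproteins and related proteins outside the 10 members were measured for 8 of 17 names looked for, with APOD below background. Of these 5 were higher and 1 lower, where 31.3% and 28.8% of all genes were, with a median of 0.19 against 0.01 over all genes. APOBR, a macrophage receptor for particles that carry APOB, was at 0.45 ± 0.12 (adjusted p 6.03e-07). SAA4, a constitutive serum amyloid A protein of high density lipoprotein, was at 0.30 ± 0.40 (adjusted p 0.0251). It was above 0 in 8 of 10 animals, and its 2 further probes were not called. Its mean was 0.07 with HFD in Cy5 and 0.54 with HFD in Cy3. APOO, a protein found chiefly in mitochondria, was at 0.22 ± 0.13, but 1 of its 2 further probes was called the other way. APOC4 was the 1 called lower.

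Of 35 genes of lipoprotein assembly, remodelling and clearance, 31 were measured, of which 9 were higher and 16 lower, with a median of -0.14. Over all genes 31.3% were higher and 28.8% lower. SDC1, a heparan sulphate proteoglycan that binds remnants carrying APOE, was at 1.32 ± 0.16. LPL, the lipase that clears triglyceride from lipoproteins, was at 0.81 ± 0.19. All 10 animals were above the pool for both genes. ANGPTL4, an inhibitor of lipoprotein lipase, was at -1.15 ± 0.37. TM6SF2, which takes part in loading very low density lipoprotein with lipid, was at -0.82 ± 0.25. SAR1B, a GTPase of the coat that carries lipoproteins out of the endoplasmic reticulum, was at -0.59 ± 0.43, with 1 animal above the pool. The largest adjusted p of these 5 was 6.35e-04.

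Of 26 transcription factors and coregulators known to act on apolipoprotein genes, 24 were measured, of which 6 were higher and 8 lower, with a median of -0.03, where 60.1% of all genes were called. SREBF1, a driver of fatty acid synthesis, was at 1.27 ± 0.28 and MLXIPL, the carbohydrate response factor ChREBP, at 0.59 ± 0.16. RXRA, a partner of many nuclear receptors, was at 0.47 ± 0.19 on its brightest probe, with 5 of its 8 further probes called the other way. HNF4A, a nuclear receptor that drives many liver apolipoprotein genes, was at -0.39 ± 0.19 and PPARA, the fatty acid receptor, at -0.32 ± 0.24. FOXA2, another of the listed factors, was at -0.29 ± 0.21, with 1 animal above the pool. The largest adjusted p of these 6 was 9.47e-04.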

How the data were processed

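Liver RNA was measured on 20 custom 2-colour Agilent arrays, on 7 slides scanned in 3 sessions. Deposited spot intensities, mean brightness and median local background in each dye, came from Agilent Feature Extraction 10.7.3.1, per the file headers. The same files hold processed intensities, background-subtracted and LOWESS dye-normalised, per the file headers. A value table deposited by the authors gives log2 ratios for each probe and animal. For it the submitters' processing notes name limma, while its background method, its normalisation and how 2 arrays were joined are not stated there. Per animal these log2 ratios correlated across probes with the array ratios computed here, both orientations averaged, at 0.88 to 0.947, and their medians lay between -0.0144 and 0.0185, so that the comparison settled the direction. Slopes across probes on the ratios computed here ran from 1.10 to 1.57, and from 0.93 to 1.34 with a normexp offset of 10, so they were taken as log2, with exact scale and centring unknown. Which RNA carried which dye was taken from the deposited array names, on which the direction of every ratio rests.

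With limma 3.58.1 (R 4.3.3), spot brightness was corrected for background by normexp at an offset of 50. Loess then normalised each array, giving control and outlier spots weight 0 before they were dropped. Spots of a probe were averaged and ratios turned to HFD over STD pool. The 2 arrays of an animal were averaged to 1 replicate. Probes well above background in either RNA on at least 10 of 20 arrays were tested against 0 with lmFit and eBayes, with Benjamini-Hochberg adjustment over all 104182 probes, or over 13881 gene names by their brightest probe. Probes with a descriptive name (336) and unnamed transcripts were left out of the gene test. The orientation difference was tested the same way, on the difference between the 2 arrays of an animal. The pool is 1 RNA, taken as a fixed reference. The labels do not say more of the animals than their diet, sex and tissue.

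Shared sequence between probes was searched on both strands with exact runs. The members and gene lists were chosen with earlier results of these data known. All 10 members were described with every probe, and of each list the 3 highest and 3 lowest called genes were named. 1 gene so taken is not reported here. Of the other apolipoproteins only APOC4 was called lower, and its second probe is given because it neighbours APOE and APOC1. The test was tried on simulated ratios before use. Alternatives are given in the closing section.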

Additional observations from a re-analysis of the deposited data

Results flagged for a closer look

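On 3 of the 41 probes the 2 dye orientations were called in opposite directions, and the difference between them also passed the test. APOC1 on CUST_19755 had a mean of 0.33 with HFD in Cy5 and -0.34 with HFD in Cy3, a difference of 0.67 that was above 0 in 10 of 10 animals. APOB on CUST_100948 had -0.20 with HFD in Cy5 and 0.51 with HFD in Cy3, a difference of -0.71. APOB on CUST_100947 had -0.11 with HFD in Cy5 and 0.30 with HFD in Cy3, a difference of -0.41. No animal stood far from the other 9 on any of the 41 probes by Dixon's test.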

How the results depend on the processing

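No pairing of HFD animals with STD animals was possible, because the labels give 1 group of animals, set against a single pool. The orientation difference was tested within each animal. APOA2, APOA4, APOE and APOH kept their direction and passed under all 17 settings of the gene test, ranging over 0.15 to 1.17, 0.40 to 1.05, 0.15 to 1.23 and -0.63 to -0.20, with arrays of 1 dye orientation at both ends. In these settings single orientations were taken only after loess. Under median centring the brightest probe of each of these genes changed sign in 1 orientation, as given with the normalisations. APOA5 ranged from -0.67, with all probes of both assembled transcripts averaged, to -0.06 on arrays with HFD in Cy3, where it did not pass. APOB ranged from 0.05, on arrays with HFD in Cy5, where it did not pass, to 0.49. APOC1 changed sign with the authors' log2 ratios (0.0028), on arrays with HFD in Cy5 (0.33), without the 6 arrays with HFD in Cy3 of animals 5 to 10 (0.12) and on arrays of the later scan sessions (0.036), and leaving out each animal moved it between -0.031 and 0.018. On arrays with HFD in Cy5, 10 member probes were higher against 25 with both orientations, and the APOB probes CUST_100948, CUST_100947, CUST_100936, CUST_100951 and CUST_100954 turned to -0.20, -0.11, -0.098, -0.045 and -0.018. Without the 6 arrays, CUST_100948 and CUST_100947 were at -0.038 and -0.093, and 17 member probes were higher against 25. Over all genes, 3449 were higher against 4349 and 2527 lower against 3991. Median centring in place of loess gave 23 probes with Cy5 higher and 1 with Cy3 higher, against 7 and 22. It turned the orientation difference to 0.11 for APOA5 on CUST_55324, 0.18 for APOB on CUST_100945, and 0.72 and 0.80 for APOE on CUST_47411 and CUST_47412. The difference on CUST_47412 was 0.015 with a normexp offset of 10 and lay between -0.039 and 0.0059 without each animal in turn. The median of the lipoprotein genes was -0.08 under median centring against -0.14. For these changes the cause was not tested. Over all settings and left-out animals, 968 probe values kept direction and call, 16 changed sign, 33 lost and 8 gained the call. Signal was above background for all 41 probes, so depth limited none of them.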

Other observations

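Clusterin (CLU), a chaperone of plasma also called apolipoprotein J, had 12 probes that disagreed. Its brightest probe was at 0.19 ± 0.24 (adjusted p 0.0203). Of the further 11, 4 were called in the same direction and 3 in the opposite one, with means from -0.32 to 0.43.

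Bright probes of other liver genes, chosen here after their values were seen, also differed between dye orientations. ALB, albumin, gave 0.35 with HFD in Cy5 and -0.81 with HFD in Cy3. TTR, transthyretin, gave 0.53 and -0.61, HPX, haemopexin, 0.58 and -0.44, and CYP2E1, an ethanol-oxidising cytochrome, 0.52 and -0.56. On these 4 genes, as on APOA2 and the APOE probe CUST_47413, the value with HFD in Cy5 was the higher. Of all 18 hepatocyte markers it was the higher for 12 and the lower for 6, among them FGA, a fibrinogen chain, at -0.56 with HFD in Cy5 and -0.12 with HFD in Cy3.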
